A study of Mus musculus with 40 samples.

Results

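The phosphotransferase genes described here are the features of 5 bacterial count tables that carry the symbols of proteins that bring sugars into the cell and phosphorylate them on the way. They were selected by name: a feature was a member if its symbol, without a trailing copy number, was manX, agaC, manY, ptsI, manZ, gatA, ptsH, gatB, fruA or gatC. This gave 24 members among 16742 features: 15 in F. rodentium, 4 in Acetatifactor, 4 in L.bacterium335, 1 in D. muris and 0 in X. muris, with the names of the bacteria as deposited. No table held manY. Of the 24 members, 12 passed the low-count filter and were tested. Of the tested members, manZ_1, agaC and gatC_2 of F. rodentium had been chosen for their measured differences between the diets, so their values are a description with no test.

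In this system a phosphate group passes from phosphoenolpyruvate to enzyme I (ptsI), from there to the small carrier protein HPr (ptsH), and then to a sugar-specific enzyme II that both transports its sugar and phosphorylates it. Enzymes II are built from parts called EIIA, EIIB and EIIC, and in the mannose family also EIID. In Escherichia coli, manX encodes the joined EIIA and EIIB parts of the mannose transporter and manZ its EIID part. There agaC encodes the membrane part EIIC of an amino sugar transporter, gatA, gatB and gatC the parts of the galactitol transporter, and fruA a fructose transporter. Mannose-family transporters of gut bacteria carry a range of sugars and amino sugars, and in Salmonella also sugar adducts of lysine. In bacteria related to Bacillus, HPr has a regulatory role as well, since it is phosphorylated by the kinase HprK and then acts with the regulator CcpA on genes of sugar use.

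Some of these symbols have another meaning. GatA, GatB and GatC are also the names of the subunits of the amidotransferase that makes glutaminyl- and asparaginyl-tRNA in many bacteria. The tables give symbols without product names, so for a row named gatA, gatB or gatC it cannot be told which protein is meant.

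The libraries came from the cecal contents of C57BL/6 mice that were 3 weeks old at the start, ate the Total Western Diet, a rodent diet modelled on human Western intake, for 6 weeks, and then ate it for another 3 weeks. In those last weeks the diet held broccoli powder at 0%, the control, at 0.5%, at 1% or at 2.5% (10 libraries for each diet). All groups share the Western diet. Total RNA was sequenced after depletion of bacterial ribosomal RNA, and no label says which mouse or cage a library came from, so p-values measure the spread between libraries.

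Each bacterium was measured within its own table, as CPM (counts per 1000000 counts of that bacterium) after TMM scaling, a correction for differences in RNA composition between libraries. Totals over the 6 tables were between 236483 and 5107249 counts per library. The F. rodentium total per library had a median of 511338 counts at 0%, 780314.5 at 0.5%, 258912.5 at 1% and 75068.5 at 2.5% broccoli, and 2 libraries at 2.5% (replicates 6 and 9) held 161 and 352 F. rodentium counts. Those 2 were left out of F. rodentium levels and tests, which therefore rest on 8 libraries at 2.5% and 10 in each other group. In bulk RNA, fewer cells of a bacterium and less RNA per cell cannot be told apart, and a change in CPM is relative to the other transcripts of the same bacterium. Copies such as manZ_1 and manZ_2 are uncertain to the extent that the counting could split reads between them.

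F. rodentium held most of the members and nearly all of their counts. Mannose-type manZ_2 took 53.8% of the counts on its 15 members and enzyme I gene ptsI took 32.7%. Together the 15 members made up 2.10 ± 0.24% of all F. rodentium counts at 0% broccoli, 2.50 ± 0.34% at 0.5%, 2.06 ± 0.41% at 1% and 2.07 ± 0.88% at 2.5% (SD, n = 10 each, with both nearly empty libraries at 2.5% counted in). As a share of the counts in all 6 tables the same sum was 1.56 ± 0.49% at 0%, 1.91 ± 0.41% at 0.5%, 1.01 ± 0.73% at 1% and 0.215 ± 0.194% at 2.5%, so the ranges within the bacterium overlapped, while the part of the whole was lowest on the highest dose.

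Against that sum, manZ_1, agaC and gatC_2 stood higher at 2.5% broccoli, and these are the values for which they were chosen. The mannose-type EIID gene manZ_1 ranged between 9.04 and 62.0 CPM at 0% broccoli, with a median of 22.7. At 0.5% it ranged between 9.53 and 197 CPM with a median of 41.5, at 1% between 30.5 and 626 CPM with a median of 57.5, and at 2.5% between 26.98 and 967 CPM with a median of 332. At 2.5% all 8 libraries lay above the 0% mean of 26.65 CPM, but replicate 10 only just, at 26.98 CPM. The ranges overlapped, because the highest 0% library had 62.0 CPM. The fitted log2 fold change of manZ_1 against 0% was 1.12 ± 0.51 at 0.5%, 1.71 ± 0.56 at 1% and 3.70 ± 0.56 at 2.5% (± SE). Between neighbouring doses it was 1.99 ± 0.56 for 2.5% against 1%, and 0.59 ± 0.52 for 1% against 0.5%.

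Of the counts on both manZ rows, manZ_1 took a median of 0.193% at 0% broccoli, 0.295% at 0.5%, 0.562% at 1% and 4.15% at 2.5%. At 2.5% the share ran between 0.329% and 7.03%, and at 0% between 0.0797% and 0.478%.

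The transporter gene agaC ranged between 10.2 and 111 CPM at 0% broccoli with a mean of 52.2, and between 15.1 and 213 CPM at 0.5% with a mean of 69.9. At 1% it ranged between 31.3 and 309 CPM with a mean of 101, and at 2.5% between 82.7 and 1439 CPM with a mean of 442. Its 8 libraries at 2.5% all exceeded the 0% mean, though 2.5% replicate 3, at 82.7 CPM, lay inside the 0% range. The log2 fold change against 0% was 0.32 ± 0.47 at 0.5%, 0.52 ± 0.52 at 1% and 2.92 ± 0.52 at 2.5% (± SE). For 2.5% against 1% it was 2.40 ± 0.55, and for 1% against 0.5% it was 0.19 ± 0.51.

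The third chosen gene, gatC_2, differed less. Its median was 40.8 CPM at 0% broccoli (range 9.04 to 75.8), 59.8 CPM at 0.5% (34.3 to 176), 61.0 CPM at 1% (22.1 to 96.0) and 161 CPM at 2.5% (0 to 225). At 2.5% there were 6 of 8 libraries above the 0% mean of 42.4 CPM, 1 just below it at 42.2 CPM and 1, replicate 1, with 0 counts. The log2 fold change against 0% was 0.80 ± 0.35 at 0.5%, 0.44 ± 0.38 at 1% and 1.65 ± 0.39 at 2.5%, and that of 1% against 0.5% was -0.35 ± 0.36 (± SE).

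**Figure D1:**
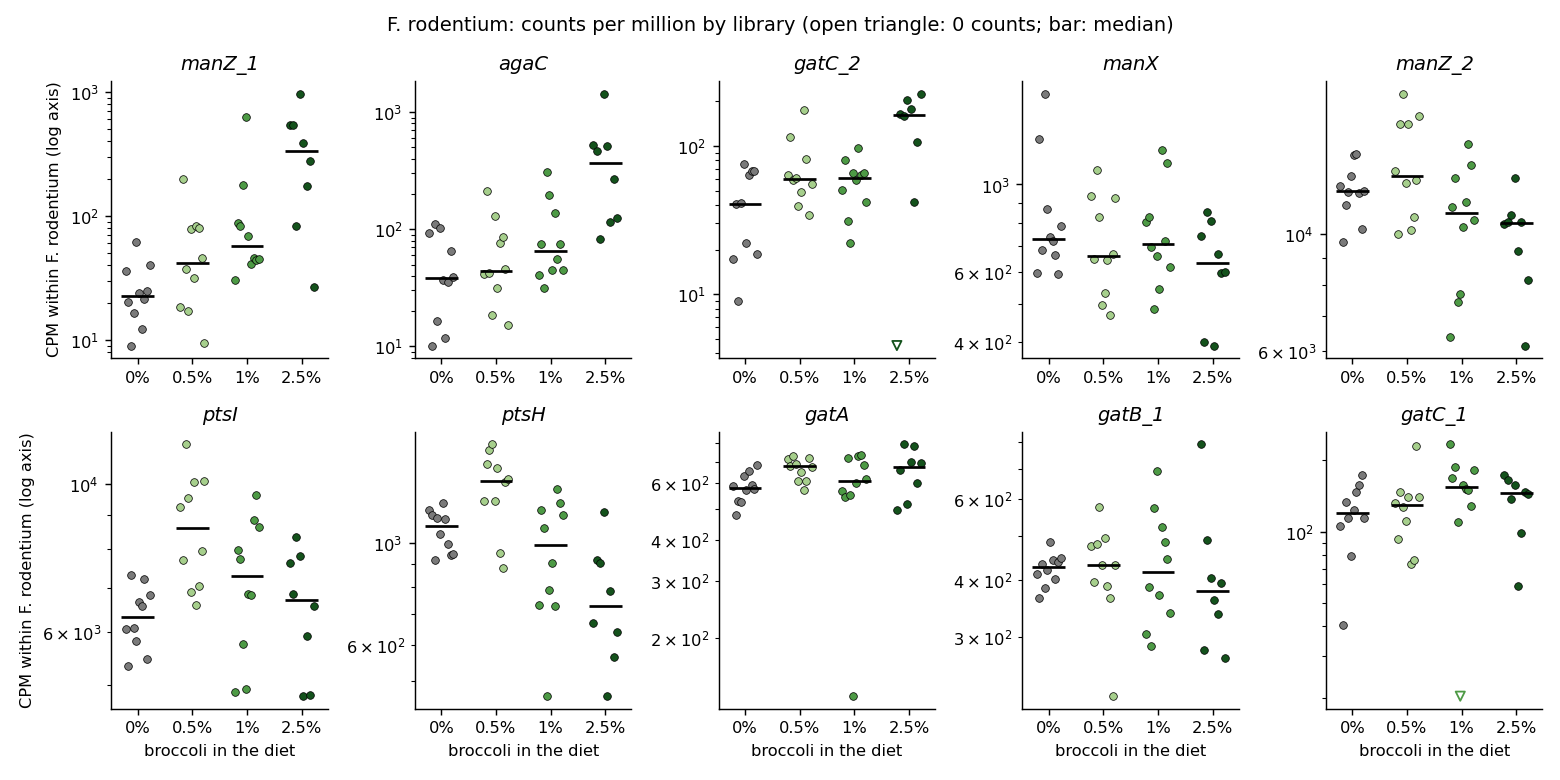
CPM within F. rodentium (log axis) of the 10 tested genes in each library, by broccoli content of the diet; bars are medians, open triangles mark libraries with 0 counts, n = 10 at 0%, 0.5% and 1% and n = 8 at 2.5%. The medians of manZ_1, agaC and gatC_2 are highest at 2.5% (332, 368 and 161 CPM), and that of ptsH is lowest there.

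The F. rodentium total, the base of these CPM, was smallest at 2.5%, so raw counts are given beside them. Summed over the 10 libraries of a diet, manZ_1 had 157 raw counts at 0% broccoli, 411 at 0.5%, 268 at 1% and 410 at 2.5%, and agaC had 299 raw counts at 0%, 477 at 0.5%, 245 at 1% and 432 at 2.5%. The mannose-type EIIA and EIIB gene manX, a member not chosen on its values, had 4738 raw counts at 0%, 7922 at 0.5%, 3006 at 1% and 965 at 2.5%. Taken as CPM of all 6 tables together, manZ_1 averaged 32.7 ± 34.8 at 2.5% and 19.5 ± 12.7 at 0% (SD, n = 10 each). On that scale agaC averaged 35.5 ± 37.8 at 2.5% and 40.03 ± 30.2 at 0%, and manX averaged 73.7 ± 77.7 at 2.5% and 563 ± 84.8 at 0%.

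Over the 38 libraries, raw counts of the 7 other tested members followed the F. rodentium total closely, with Spearman correlations between 0.965 and 0.991. That correlation was 0.469 for manZ_1, 0.502 for agaC and 0.815 for gatC_2. The CPM of manZ_1 and of agaC were negatively correlated with the total over the same libraries (Spearman -0.491 and -0.580), and within the single diets the values ran between -0.500 and -0.006 for manZ_1 and between -0.588 and -0.006 for agaC, with 8 to 10 libraries each. These correlations describe libraries that share the total as denominator. With the log2 F. rodentium total as a covariate the log2 fold change at 2.5% against 0% was 2.54 ± 0.48 for manZ_1, 1.74 ± 0.47 for agaC and 1.59 ± 0.45 for gatC_2, and with only libraries above 50000 F. rodentium counts it was 2.85 ± 0.50 for manZ_1, 2.03 ± 0.50 for agaC and 1.67 ± 0.40 for gatC_2. For 1% against 0.5% the signs turned with these settings, to -0.03 for manZ_1 and -0.36 for agaC with the covariate and to -0.02 and -0.20 with the higher minimum. The part of depth in the remaining difference was not tested.

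**Figure D2:**
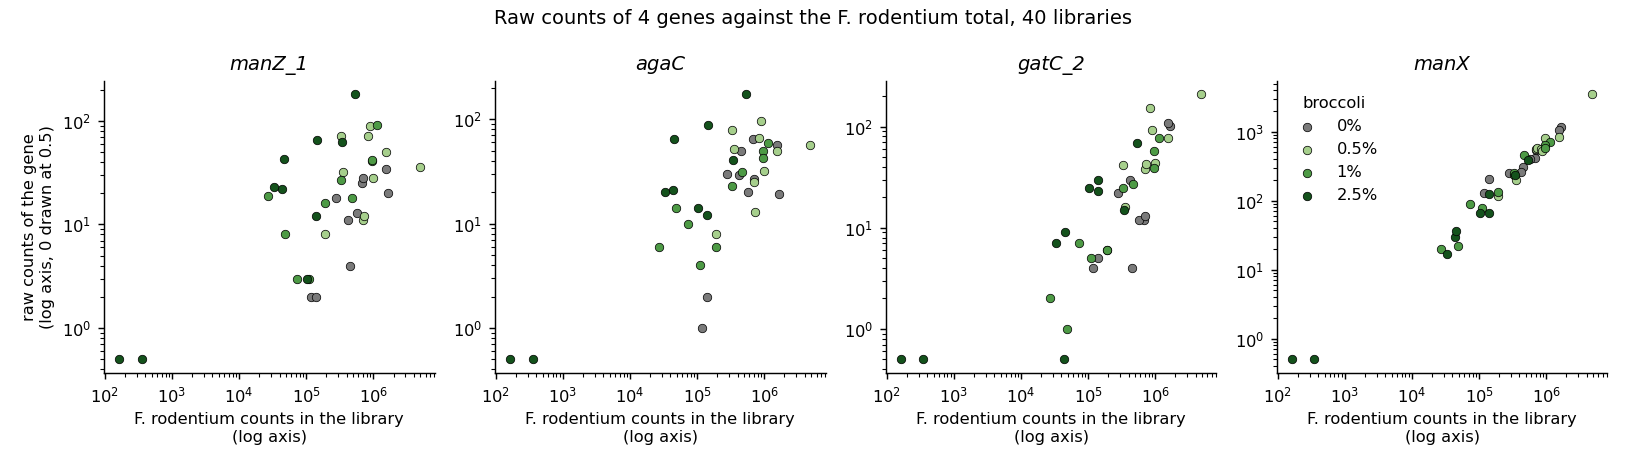
Raw counts of manZ_1, agaC, gatC_2 and manX (log axis, 0 drawn at 0.5) against the F. rodentium counts of the library (log axis) in all 40 libraries, coloured by broccoli content. For manX the points lie on a line whatever the diet, whereas for manZ_1 and agaC many 2.5% libraries lie above the others at the same total, and both libraries with 161 and 352 F. rodentium counts hold 0 counts of each gene.

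The genes that serve all sugars are ptsI and ptsH. Enzyme I gene ptsI averaged 6332 ± 686 CPM at 0% broccoli, 8666 ± 1658 CPM at 0.5%, 7208 ± 1648 CPM at 1% and 6593 ± 1327 CPM at 2.5% (SD, n = 10, 10, 10 and 8). It was higher at 0.5% than at 0%, by 0.45 ± 0.14 on the log2 scale, with 10 of 10 libraries above the 0% mean (adjusted p = 0.040 in edgeR). At 1% the log2 fold change against 0% was 0.19 ± 0.14 and at 2.5% it was 0.06 ± 0.15, and neither passed the threshold. The call at 0.5% was lost in each of 5 fits that left out 1 library (0% replicate 6, or 0.5% replicate 3, 4, 6 or 10), with log2 fold changes of 0.40 to 0.46. It was also lost without the 6 libraries numbered 76 to 81, with 0.53 (adjusted p = 0.078 in edgeR). That fit kept 10 libraries at 0% and 6 at 0.5%.

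HPr gene ptsH averaged 1066 ± 110 CPM at 0%, 1321 ± 253 CPM at 0.5%, 955 ± 274 CPM at 1% and 763 ± 228 CPM at 2.5% (SD). At 2.5% against 0% its log2 fold change was -0.50 ± 0.18, with 7 of 8 libraries below the 0% mean, and this missed the threshold (adjusted p = 0.064 in edgeR). It did pass without 2.5% replicate 4 (-0.61, adjusted p = 0.028), and among libraries above 50000 F. rodentium counts (-0.68, adjusted p = 0.019). At 1% against 0.5% all 10 libraries at 1% lay below the 0.5% mean, with a log2 fold change of -0.45 ± 0.16 that missed the threshold (adjusted p = 0.24). At 0.5% against 0% it was 0.31 ± 0.16, also short of the threshold.

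The remaining F. rodentium transporter genes did not pass the test at any dose. The EIIA and EIIB gene manX averaged 865 ± 356 CPM at 0%, 723 ± 210 at 0.5%, 770 ± 239 at 1% and 633 ± 172 at 2.5%, and all 8 libraries at 2.5% lay below the 0% mean (log2 fold change -0.44 ± 0.22), short of the threshold (adjusted p = 0.19 in edgeR). The EIID gene manZ_2 averaged 12086 ± 1456 CPM at 0%, 13685 ± 3018 at 0.5%, 10634 ± 2755 at 1% and 9854 ± 1995 at 2.5%. Its log2 fold change at 2.5% against 0% was -0.30 ± 0.16, with a 95% interval of -0.62 to 0.02.

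At 2.5% and at 0% broccoli gatA averaged 655 ± 111 and 582 ± 62 CPM, gatB_1 416 ± 167 and 423 ± 34 CPM, and gatC_1 135 ± 38 and 119 ± 39 CPM. Their log2 fold changes against 0% lay between -0.06 and 0.35 over the 3 doses, with the largest, 0.35 ± 0.24, in gatC_1 at 1%. The 95% interval at 2.5% against 0% was -0.13 to 0.49 for gatA, -0.42 to 0.30 for gatB_1 and -0.45 to 0.60 for gatC_1. With DESeq2 in place of edgeR, gatA passed the threshold at 2.5% (log2 fold change 0.31, adjusted p = 0.024) and at 0.5% (0.23, adjusted p = 0.042).

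**Figure D3:**
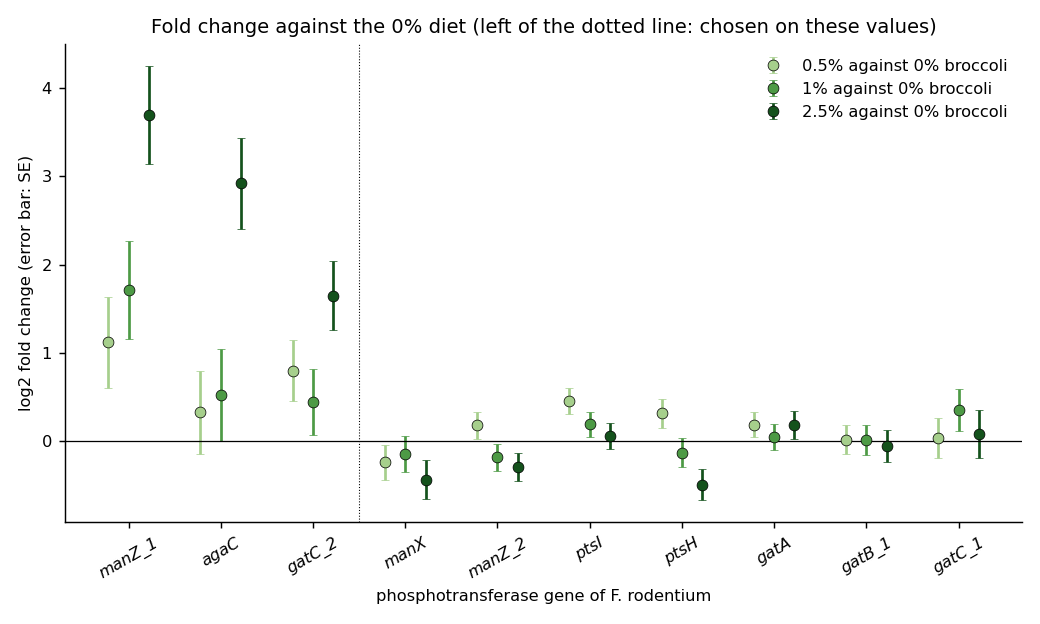
Log2 fold change with its SE of the 10 tested F. rodentium genes at 0.5%, 1% and 2.5% against 0% broccoli, from 1 edgeR fit of 38 libraries. The 3 genes left of the dotted line were chosen on these values and reach 3.70, 2.92 and 1.65 at 2.5%; the other 7 stay between -0.50 and 0.45, and of these ptsI at 0.5% passed the threshold.

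Counted over all bacteria, 9 members were tested that had not been chosen on their values: 7 in F. rodentium, 1 in L.bacterium335 and 1 in D. muris. In F. rodentium 0 of 7 passed at 2.5% against 0%, where 9.41% of the 1689 tested features did. At 1% against 0% 0 of 7 passed (background 0.474%). At 0.5% against 0% ptsI alone passed, as a gene that was higher (background 3.55% higher and 8.47% in either direction). For 2.5% against 1% (background 0.77%) and 1% against 0.5% (background 0.296%) 0 of 7 passed. DESeq2 called gatA at 2.5% against 0%, ptsI, gatA and ptsH at 0.5% against 0%, and ptsH at 1% against 0.5%. Of all 1992 F. rodentium features it called 269, 246 and 48 in these comparisons. The median log2 fold change of these 7 F. rodentium members at 2.5% against 0% was -0.06, beside 0.01 over all tested features. With RLE factors in place of TMM the median of all features was 0.12, and 71.2% of the called features were higher, against 57.2% with TMM.

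The other 5 F. rodentium members were too thinly counted to test. The fructose transporter copies fruA_1, fruA_2, fruA_3 and fruA_4 had 55, 2, 11 and 11 raw counts over the 40 libraries, and gatB_2 had 74 in 23 libraries. Of fruA_1 there were 21 counts at 0% broccoli, 14 at 0.5%, 16 at 1% and 4 at 2.5%, and of gatB_2 34, 24, 9 and 7 counts at the same doses. The F. rodentium total at 2.5% was also the smallest. The 6 counts of fruA_3 at 2.5% all came from 1 library, replicate 8, and its 5 counts at 1% came from 2 libraries.

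**Figure D4:**
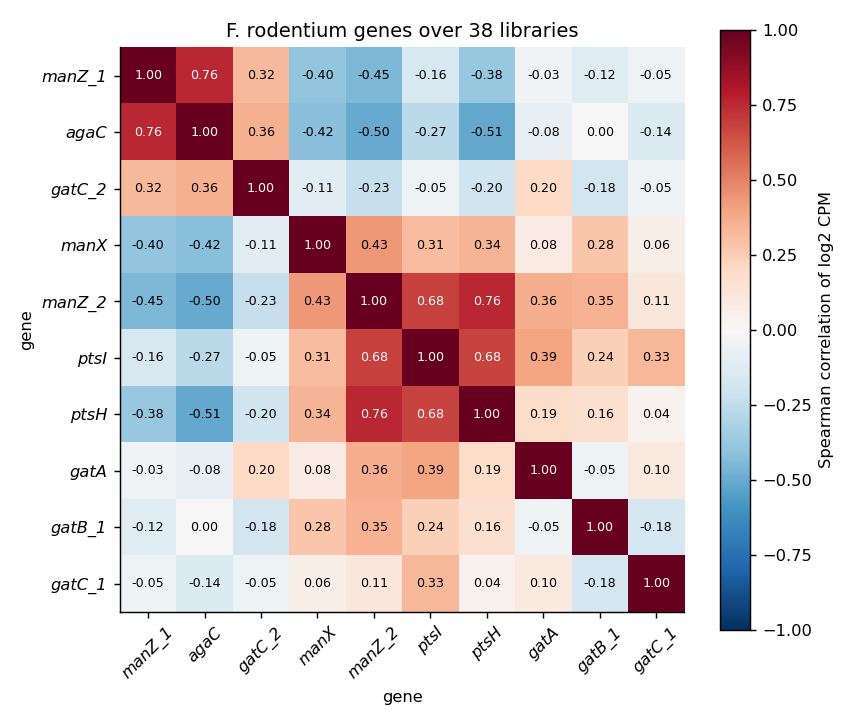
Spearman correlations of log2 CPM between the 10 tested F. rodentium genes over the 38 libraries with at least 10000 F. rodentium counts. The correlation is 0.76 for manZ_1 and agaC, both chosen on their values, and 0.68 to 0.76 among manZ_2, ptsI and ptsH, and agaC and ptsH are negatively correlated (-0.51).

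Both manZ_1 and agaC were chosen for being high at 2.5%, so their correlation over the 38 F. rodentium libraries of all diets (Spearman 0.756) follows in part from that choice. Within the diets the values were 0.382 at 0%, 0.939 at 0.5%, 0.394 at 1% (n = 10 each) and 0.905 at 2.5% (n = 8). Of the members not chosen on values, manZ_2 was correlated with ptsH (0.758) and with ptsI (0.681), and ptsI with ptsH (0.680). Within the diets manZ_2 and ptsI gave 0.200 at 0% and 0.714 to 0.830 at the other doses. All these values come from the same libraries and share their totals, so they are descriptions. No grouping of the members was tested.

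In the same descriptive sense, the features with a symbol that were most like manZ_1 in level over the 38 libraries were frlB (Spearman 0.784), agaC, wbpE, glmS_2 (0.603) and gltD (0.596). Most like agaC were frlB (0.838), manZ_1, norR (0.751), glmS_2 (0.750) and metH_2 (0.696). For gatC_2 they were yeeO_1 (0.680), mepA_1, kdpA, ttuE and GFM1 (0.608). In E. coli frlB encodes the enzyme that splits fructoselysine 6-phosphate, and glmS is the name of glucosamine 6-phosphate synthase. The frlB row of F. rodentium averaged 749 ± 554 CPM at 2.5% broccoli (n = 8) and 68.2 ± 42.9 CPM at 0% (n = 10), a log2 fold change of 3.54 ± 0.49. It was picked for its likeness over all diets to genes chosen for being high at 2.5%, so this difference follows in part from that choice. Within the diets frlB and agaC had Spearman correlations of 0.188 at 0% broccoli, 0.952 at 0.5%, 0.770 at 1% and 0.881 at 2.5%.

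L.bacterium335 and Acetatifactor members were counted mainly on broccoli diets. In the L.bacterium335 table the 4 members gatA, gatC, ptsH and ptsI had 0 counts in all 10 libraries at 0% broccoli. At 0.5%, 1% and 2.5%, gatA had 47, 152 and 538 counts, ptsH 9, 27 and 177, ptsI 4, 18 and 152, and gatC 2, 10 and 19. At 2.5% gatA was counted in 10 of 10 libraries (6 to 123 counts, median 50.0), ptsH and ptsI in 9 each and gatC in 5. The genes of enzyme I and HPr were thus counted in this bacterium with broccoli and not detected without it, where the 0% libraries held 757208 L.bacterium335 counts in all. Of the 4661 L.bacterium335 features 25.3% had a count at 0%, and the 5 most counted took 76.2% of those counts.

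Only gatA of L.bacterium335 passed the low-count filter. It did so through the broccoli groups alone, since it was at 0 in every 0% library, so it had to be higher at each dose and is given with no p. Its fold is a lower bound, with 3 counts over the group as the floor: at least 15.5-fold higher at 0.5%, 20.6-fold at 1% and 20.1-fold at 2.5%. The bound depended on the setting. At 0.5% it was 7.55-fold without the low-count filter and 6.65-fold without libraries 76 to 81. At 1% it was 11.8-fold without the filter, 10.8-fold without replicate 5 and 43.5-fold with RLE factors in place of TMM. At 2.5% it was 12.6-fold without libraries 76 to 81, 12.6-fold without replicate 10 and 122-fold with RLE factors. Such a call was common there. At 2.5% the test called 92.8% of the 1384 features, and 77.8% as higher. At 1% it called 79.9%, with 78.4% as higher, and at 0.5% it called 80.1%, with 79.4% as higher. Between doses gatA did not pass in edgeR, with 0.17 ± 0.55 for 2.5% against 1% (8.38% called) and -0.15 ± 0.61 for 1% against 0.5% (0.145% called). DESeq2 called gatA higher at 2.5% than at 1% (log2 fold change 1.75, adjusted p = 0.030), as it did 1512 of 4240 features. With RLE factors the median of all tested features in that comparison was 1.84, against 0.19 with TMM.

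The make-up of the table differed as well. At 2.5% broccoli 89.4% of the 4661 L.bacterium335 features had a count and the 5 most counted took 17.7% of the total, while at 0% 25.3% of the features had a count and the 5 most counted, none with a symbol, took 76.2%. The part of this in the results of gatA and the other L.bacterium335 members was not tested.

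In Acetatifactor, ptsI, gatB and gatA had more counts at each higher dose, and none of its 4 members passed the low-count filter. Summed over the libraries at 0%, 0.5%, 1% and 2.5% broccoli, ptsI had 0, 17, 32 and 233 raw counts, gatB had 11, 21, 59 and 206, gatA had 0, 10, 25 and 77, and gatC had 0, 0, 7 and 1. The Acetatifactor total was larger on the higher doses, 1294765 counts at 2.5% and 365479 at 0%. Its make-up differed too. At 2.5% 86.2% of the 4440 features had a count and the 5 most counted took 25.8% of the total, against 56.1% and 54.8% at 0%. Of the 11 counts of gatB at 0%, 10 came from replicate 3. Of the 773 tested Acetatifactor features, 77% were called at 2.5%, and 54.5% as higher.

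**Figure D5:**
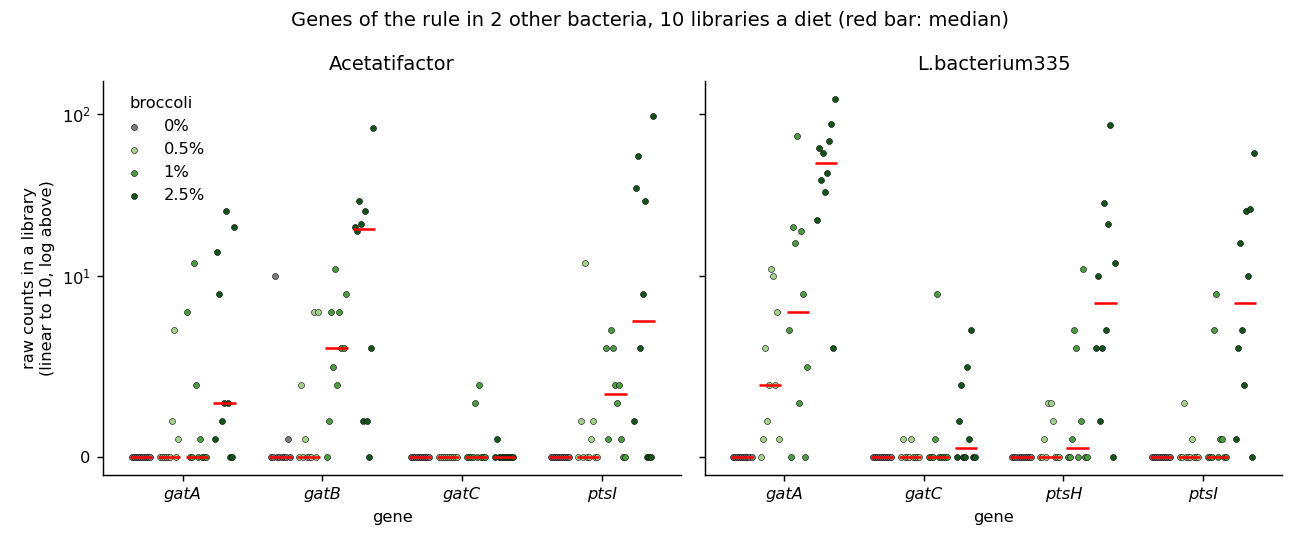
Raw counts of the 4 Acetatifactor and the 4 L.bacterium335 members in each library (linear up to 10, log above), by broccoli content, with red bars for medians, n = 10 libraries a diet. The L.bacterium335 genes are at 0 in every 0% library and gatA reaches a median of 50.0 counts at 2.5%; the Acetatifactor ptsI and gatB medians are above 0 at 1% and 2.5% only.

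D. muris had a single member, gatC. It averaged 522 ± 383 CPM at 0% (n = 9), 499 ± 229 at 0.5% (n = 9), 677 ± 116 at 1% (n = 10) and 569 ± 137 at 2.5% (n = 9). The test was not passed for any pair of diets in this bacterium, where 10.6% of 1108 features were called at 2.5% against 0%, 6.23% at 1%, 4.96% at 0.5%, 0.271% at 2.5% against 1% and 0% at 1% against 0.5%. At 2.5% against 0% the log2 fold change was 0.11 ± 0.30, with a 95% interval of -0.48 to 0.70. The groups overlapped widely, with 1 D. muris library at 0 counts of gatC and another at 1175 CPM in the 0% group.

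Other genes of the pathway were taken from 3 lists of symbols. The list of other phosphotransferase components had 18 F. rodentium features, of which 12 were tested and 0 passed at 0.5%, 1% or 2.5% against 0%, among them the cellobiose and beta-glucoside transporter genes celA_1, celB, chbA, chbB and bglF. The median log2 fold change of those 12 at 2.5% was 0.46.

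Kinases and regulators of the system gave 4 of 16 tested F. rodentium features higher and 0 lower at 2.5% against 0%, beside 5.39% higher and 4.03% lower over all features. These were licC, licR_2, licR_3 and mtlR. The row licC had 2239 ± 1330 CPM at 2.5% (n = 8) and 720 ± 322 CPM at 0% (n = 10), a difference of 1.62 ± 0.31 on the log2 scale with 7 of 8 libraries above the 0% mean (adjusted p = 0.00043 in edgeR), and it was also higher at 0.5% (1.57 ± 0.29, 10 of 10 libraries above the 0% mean). The symbol licC is used for a lichenan transporter part in Bacillus subtilis and for a choline phosphate enzyme in Streptococcus pneumoniae, so its place among the regulators is uncertain. LicR and MtlR are activators that are themselves controlled by phosphotransferase phosphorylation in Bacillus. The mannitol-type regulator mtlR had 57.8 ± 46.99 CPM at 2.5% and 10.1 ± 17.3 CPM at 0% (log2 fold change 2.59 ± 0.84), licR_2 had 81.5 ± 40.7 and 33.1 ± 20.5 CPM (1.30 ± 0.40), and licR_3 had 2838 ± 1666 and 1604 ± 631 CPM (0.82 ± 0.28). At 0.5% licC and licR_3 passed, and at 1% 0 of 16 did. Without libraries 76 to 81 the licR_3 call at 0.5% was lost (adjusted p = 0.063), as were those of licR_3 and mtlR at 2.5%. Leaving out 1 library at a time, the call at 2.5% was lost in 23 fits for licR_3, in 12 for mtlR and in 3 for licR_2 (0% replicate 6 and 2.5% replicates 3 and 8). With the F. rodentium total as a covariate, licR_3 (0.54) and mtlR (1.76) were not called, and neither was called with libraries above 50000 counts. The HPr kinase gene hprK and the regulator gene ccpA of F. rodentium did not pass.

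Among enzymes that act on the sugar phosphates, 2 of 18 tested F. rodentium features were higher and 1 was lower at 2.5% against 0%, beside 5.39% higher and 4.03% lower over all features. The tagatose 6-phosphate kinase gene lacC had 49.9 ± 63.0 CPM at 2.5% and 5.04 ± 8.35 CPM at 0% (log2 fold change 3.86 ± 0.84), with 5 of 8 libraries above the 0% mean, and it was higher at 0.5% too (2.92 ± 0.76, 10 of 10 libraries). At 1% it had 3.43 ± 6.41 CPM, so its levels did not follow the dose. The row agaA_2, a symbol of alpha-galactosidase in Bacillus relatives, was higher (1.44 ± 0.40), a call that was lost without 2.5% replicate 3 or replicate 10, with the covariate (1.37) and without libraries 76 to 81 (1.14). The 6-phosphofructokinase gene pfkA was lower, 866 ± 108 CPM at 2.5% and 1350 ± 337 CPM at 0% (log2 fold change -0.64 ± 0.17), with 8 of 8 libraries below the 0% mean (adjusted p = 0.014 in edgeR). The phospho-beta-glucosidase gene bglH_1 passed at 0.5% (0.80 ± 0.24) and not at the other doses, and that call was lost without 0.5% replicate 3 or replicate 4 and without libraries 76 to 81 (0.84).

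In L.bacterium335 all 13 tested features of the 3 lists had 0 counts at 0% broccoli and passed the filter through the broccoli groups, so they had to be higher; all were called at every dose, as were 77.8% to 79.4% of all tested features. At 2.5% the 1-phosphofructokinase gene fruK had 5590 summed counts, the aldolase gene fba 3606, and the HPr kinase gene hprK and the regulator gene ccpA_2 1606 and 2671. In Acetatifactor all 11 tested features were higher at 2.5%, where 54.5% of all tested features were, among them nagB_2, a glucosamine 6-phosphate deaminase gene with 303 counts at 2.5% and 0 at 0%. With the Acetatifactor total as a covariate, nagB_2 kept its call and the other 10 lost theirs, and 126 of the 773 tested features were called. With 0 counts at 0%, nagB_2 passed the filter through the broccoli groups alone, so it had to be higher. Of its component list the tested rows were gutB, lacF_1 and malX, 3 symbols that are also used for a sorbitol dehydrogenase, a lactose permease part and a maltodextrin-binding protein outside the phosphotransferase system. In D. muris 0 of 7 tested features of the lists passed at any dose.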

How the data were processed

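Raw counts per gene were deposited by the authors as 1 table for each of 6 bacteria over the same 40 libraries. Per the labels' protocols, RNA of cecal contents was depleted of ribosomal RNA (QIAseq FastSelect) and made into libraries with the KAPA RNA HyperPrep kit. Aligner, counting rule, genome build and the handling of reads shared between copies or genomes were details not given in the sources used here. Groups were taken from the labelled treatment, and replicates were numbered in sample order, which pairs no samples.

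Each bacterium was fitted alone in R 4.3.3 with edgeR 4.0.16 (quasi-likelihood test, two-sided, TMM factors, filterByExpr by group, all 4 diets in 1 fit). Libraries with under 10000 counts in that bacterium were left out of its fit. P-values were adjusted by Benjamini-Hochberg over the tested features of a bacterium and comparison, with a threshold of 0.05, and the SE of a log2 fold change was its size divided by the square root of F. In X. muris 5 stable RNA features were left out. The Alistipes table entered the 6-table totals alone. The fits were tested on simulated counts first. Correlations used log2 CPM with a prior count of 2.

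The members and the lists of other genes were chosen with earlier results of these data known. All members are named, and from the lists those called at any dose against 0%, up to 5 for a list and bacterium by smallest p. 1 listed gene that this rule would name is not reported here. Some symbols on the lists have other meanings. Alternatives were RLE factors, DESeq2 1.42.0, no low-count filter, other library minimums, the log2 total of the bacterium as a covariate, leaving out libraries 76 to 81, whose title numbers stand apart, and leaving out each library in turn. Without libraries 76 to 81, and before any library minimum, 10 libraries remained at 0%, 6 at 0.5%, 9 at 1% and 9 at 2.5%.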

Additional observations from a re-analysis of the deposited data

Results flagged for a closer look

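Some libraries stood apart from the rest of their diet group in the level of a member, by Dixon's test of the gap to the nearest library. Of 48 sets of values for a gene in a group, 1 had no range and 8 passed the critical value. For normally distributed values chance flags about 1 in 20. That rate need not hold for CPM, some of them from few counts, so the 8 flags are not set against it. In F. rodentium at 0.5% broccoli, gatC_1 stood at 228.7 CPM in replicate 9 (40 counts of 191141, the smallest F. rodentium total in that group), and manZ_1 at 196.9 CPM in replicate 2. At 1% broccoli, replicate 5, with 26963 F. rodentium counts, held 3 of the 8 values: manZ_1 at 625.5 CPM (19 counts), gatA at 131.7 CPM (4 counts) and gatC_1 at 0 CPM. At 2.5% broccoli, agaC stood at 1439 CPM in replicate 4 (64 counts of 45899) and gatB_1 at 791.4 CPM in replicate 1 (32 counts of 43943). In L.bacterium335, gatA stood at 328.4 CPM in 0.5% replicate 7, from 10 counts of 32658. The part of depth in these values was not tested.

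Outside the rule, which takes symbols as spelled, the L.bacterium335 table holds a row GATB in capitals. It had 0 counts at 0% broccoli, 47 at 0.5%, 103 at 1% and 387 at 2.5%, summed over 10 libraries each, with 0 of 10 libraries above 0 at 0% and 9 of 10 at 2.5%.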

How the results depend on the processing

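The log2 fold changes of manZ_1, agaC and gatC_2 at 0.5%, 1% and 2.5% against 0% stayed positive under each alternative that gave a value, and the summed shares moved by less than 1 SD. At 1% against 0.5%, within the SE of 0, agaC changed sign without 1% replicate 4 (-0.12). Leaving out 1 library at a time, the values at 2.5% against 0% lay between 3.34 and 3.92 for manZ_1, 2.38 and 3.10 for agaC, and 1.47 and 1.81 for gatC_2. No paired analysis was possible because replicate numbers were only counted off in sample order. For the summed shares, having no library minimum is the same as the value given; a minimum of 10000 counts, leaving out libraries 76 to 81 and leaving out each library were added after seeing the data.

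Of the members not chosen on values, 2 were called at 0.5% against 0%, 1 at 1%, 1 at 2.5% (1 of them each time gatA of L.bacterium335, at 0 counts at 0%), and 0 between 1% and 0.5% or 2.5% and 1%. With DESeq2, which tests more features, these became 5 at 0.5%, 5 at 1% and 7 at 2.5% against 0%, 1 for 1% against 0.5% and 3 for 2.5% against 1%. The calls at 2.5% against 0% were gatA of F. rodentium, gatA, gatB and ptsI of Acetatifactor, and gatA, ptsH and ptsI of L.bacterium335. Apart from gatA of F. rodentium and gatB, these had 0 counts at 0%. DESeq2 called 2559 of 3895 Acetatifactor, 2862 of 4240 L.bacterium335 and 269 of 1992 F. rodentium features there. In the same order it called 1055, 2086 and 246 at 0.5% against 0%, and 1786, 2409 and 27 at 1% against 0%. The call for 1% against 0.5% was in F. rodentium, where 48 of 1992 features were called. The 3 calls for 2.5% against 1% were in L.bacterium335, where 1535 of 4240 features were called. Without the low-count filter the calls became 4 at 0.5%, 5 at 1% and 6 at 2.5% against 0%. At 2.5% that setting called 2538 of 3895 Acetatifactor, 3252 of 4240 L.bacterium335 and 208 of 1992 F. rodentium features. In the same order it called 811, 2374 and 161 at 0.5%, and 1852, 2770 and 19 at 1%. With libraries above 50000 counts, 2 were called at 2.5%, where 102 of 1765 F. rodentium and 1427 of 1543 L.bacterium335 features were. At 0.5%, 1 was called with no library minimum, with the total as a covariate and without libraries 76 to 81; ptsI was lost each time (adjusted p = 0.16, 0.058 and 0.078). Leaving out 1 library gave 1 to 2 calls at 0.5% and 1 to 2 at 2.5%.

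Over the 5 bacteria, 6 other components were called at each dose against 0%, 4, 2 and 7 regulators, and 12, 14 and 18 enzymes, at 0.5%, 1% and 2.5%. Of the 6 components, 3 were from Acetatifactor and 3 from L.bacterium335. At these doses 194, 524 and 595 of all 773 tested Acetatifactor features were called. In L.bacterium335, where listed features had to be higher, it was 80.1%, 79.9% and 92.8%. In F. rodentium it was 8.47%, 0.474% and 9.41%, and in D. muris 4.96%, 6.23% and 10.6%. DESeq2 gave 15 components at 2.5%, 5 and 11 regulators at 1% and 2.5%, and 25, 25 and 33 enzymes from 0.5% to 2.5%. No filter gave 10 and 13 components and 24 and 31 enzymes at 1% and 2.5%, and 4 regulators at 1%. Both settings tested more features. Above 50000 counts it was 3 components at 0.5% and 1%, and 8 and 11 enzymes at 1% and 2.5%. Acetatifactor and D. muris then had no 0% library. The covariate gave 3 components, 4 regulators and 11 enzymes at 2.5%. Calls among all features moved in these settings too. Without libraries 76 to 81 it was 3 components at 0.5%, and without 1 library 3 to 9 regulators at 2.5%. These counts are thus no results about the lists, and causes were not tested. No called direction was reversed. At 2.5%, F. rodentium totals as low as 32723 counts limit the thinly counted genes.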

Other observations

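The F. rodentium table also holds a row manP, a symbol used for a mannose transporter in Bacillus, that neither the selection nor the lists include. It had 10 summed counts at 0% broccoli, 33 at 0.5%, 7 at 1% and 6 at 2.5%, in 3, 7, 1 and 2 of 10 libraries.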
